A study of Homo sapiens with 4 samples.

Results

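The RNAs described here are those of ABL1, NUP214, BCR, DGCR2 and GPC5, found by their gene symbol in a table of contacts between RNAs and regulatory elements of the genome. They are 5 of the table's 2637 RNAs and hold 634 of its 115357 contacts. They were chosen from results of the same table, because their contacts on chromosomes 9, 13 and 22 stood out, so their contact lists and scores are given as a description with no test. GRID-seq, which joins an RNA through a linker to the DNA beside it in fixed nuclei, was run on K562 cells, a human leukaemia cell line. One genotype, RUNX1 R320*, has a stop codon in the C-terminal portion of the blood transcription factor RUNX1, and WT cells are labelled wild type. There were 4 libraries, 2 for each genotype, and the authors combined them into 1 score per contact and genotype. The question, per the study's design text, was how enhancer and promoter contacts differ between R320* and WT cells. Whether the libraries of a genotype are separate cultures, and whether the mutant line is 1 clone, the labels leave unsaid.

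K562 carries the Philadelphia translocation, which joins the 5′ portion of BCR on chromosome 22 to ABL1 on chromosome 9 and makes the BCR-ABL1 kinase. A fusion transcript of NUP214 with XKR3, a chromosome 22 gene, has also been described in this line, as have rearrangements that involve chromosome 13. RNA that stays near its own gene contacts the chromatin around it, so a sequence joined to that gene by a rearrangement can appear in such a table under another chromosome. ABL1 encodes a tyrosine kinase and BCR a protein with a kinase and a GTPase-activating domain. NUP214 encodes a protein of the nuclear pore. DGCR2 lies in the DiGeorge region of chromosome 22 and encodes a membrane protein, and GPC5 encodes a glypican, a heparan sulphate proteoglycan of the cell surface. R320* and WT cells are the same line. Whether joined DNA or contact between separate chromosomes gives the connections described here was not tested, and copy number was not measured in the files used here. As a look at the cell type, the embryonic and fetal globin RNAs HBE1 and HBG2, typical of K562, had 192 and 196 connections in R320* and 152 and 154 in WT, while HBG1 and GATA1 were not listed as RNAs.

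In the hg38 coordinates of the table, named through RefSeq genes of GRCh38.p14, ABL1 (ENSG00000097007.18) lies at chr9:130713043-130887675 and NUP214 (ENSG00000126883.17) at chr9:131125586-131234663. BCR (ENSG00000186716.20) lies at chr22:23180509-23318037, DGCR2 (ENSG00000070413.20) at chr22:19036286-19122412 and GPC5 (ENSG00000179399.15) at chr13:91398621-92867237. A contact, called a connection below, has a score of at least 1.2 in at least 1 genotype, and a genotype below that minimum is at 0, read as not listed. The sources used here do not give the scale of the score, and sequencing depth is unknown, so differences are given in score units, R320* minus WT. Spreads are over connections, which are not replicates. A connection is "own chromosome" where the element lies on the RNA gene's chromosome (local or cis in the table), "partner chromosome" where it lies on another of chromosomes 9, 13 and 22, and "elsewhere" on any other.

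Elements met by at least 3 of the 5 RNAs include the starts of NUP214, BCR, GPC5 and MIR17HG, a neighbour of GPC5. Their promoters are shown because RNAs of the other chromosomes meet them. They are 300-base windows from RefSeq (GRCh38.p14), plus strand, 5′ to 3′, with GGGCGG and its reverse complement CCGCCC, the GC box letters, in capitals. The NUP214 window (chr9:131125336-131125635) and the BCR window (chr22:23180259-23180558) lie in elements met by all 5 RNAs. The GPC5 window (chr13:91398371-91398670) lies in an element met by ABL1, NUP214 and BCR RNA, and the MIR17HG window (chr13:91347437-91347736) in an element met by all but GPC5 RNA.
NUP214 promoter: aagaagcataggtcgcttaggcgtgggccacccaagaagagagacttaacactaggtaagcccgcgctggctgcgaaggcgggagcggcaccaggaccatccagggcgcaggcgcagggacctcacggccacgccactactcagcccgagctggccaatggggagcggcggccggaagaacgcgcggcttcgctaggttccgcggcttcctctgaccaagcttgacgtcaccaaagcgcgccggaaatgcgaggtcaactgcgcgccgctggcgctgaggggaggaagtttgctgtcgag
BCR promoter: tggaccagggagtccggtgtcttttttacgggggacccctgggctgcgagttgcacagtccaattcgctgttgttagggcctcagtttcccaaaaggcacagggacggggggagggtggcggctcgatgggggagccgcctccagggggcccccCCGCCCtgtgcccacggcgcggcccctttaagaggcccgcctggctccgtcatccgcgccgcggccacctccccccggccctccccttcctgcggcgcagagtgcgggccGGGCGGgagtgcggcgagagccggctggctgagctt
GPC5 promoter: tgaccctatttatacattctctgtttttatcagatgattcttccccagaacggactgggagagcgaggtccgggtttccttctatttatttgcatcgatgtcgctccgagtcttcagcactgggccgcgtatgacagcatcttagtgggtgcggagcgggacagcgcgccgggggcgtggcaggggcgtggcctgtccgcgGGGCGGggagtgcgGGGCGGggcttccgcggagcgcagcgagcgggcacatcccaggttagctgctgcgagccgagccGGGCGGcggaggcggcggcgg
MIR17HG promoter: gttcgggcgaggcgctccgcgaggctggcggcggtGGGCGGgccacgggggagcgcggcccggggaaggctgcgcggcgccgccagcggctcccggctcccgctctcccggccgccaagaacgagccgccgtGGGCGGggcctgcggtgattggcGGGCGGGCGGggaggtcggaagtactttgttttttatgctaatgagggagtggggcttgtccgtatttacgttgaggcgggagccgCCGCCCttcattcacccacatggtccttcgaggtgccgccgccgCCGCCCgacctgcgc
The windows hold 0, 2, 3 and 6 GC boxes in that order, and 45.0% of 35116 RefSeq promoter windows of this length hold at least 1. Their share of G and C is 65.3% at NUP214, 71.7% at BCR, 65.0% at GPC5 and 73.0% at MIR17HG. TGTGGT or ACCACA, the core letters that RUNX proteins bind, is in 0 of these 4 windows and in 13.1% of all windows. These matches describe letters only.

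MIR17HG is the host of the miR-17-92 cluster, growth-promoting microRNAs often amplified in lymphoma. Its promoter element (chr13:91345455-91352730) holds all 6 hairpins of the cluster, and they lie between 91350605 and 91351391. For each hairpin, the arm usually described as the guide is shown from RefSeq (GRCh38.p14), plus strand of chromosome 13, with the seed (bases 2 to 8) in capitals.
hsa-miR-17-5p: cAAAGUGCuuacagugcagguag
hsa-miR-20a-5p: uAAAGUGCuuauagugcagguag
hsa-miR-18a-5p: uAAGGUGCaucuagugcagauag
hsa-miR-19a-3p: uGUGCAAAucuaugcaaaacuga
hsa-miR-19b-3p: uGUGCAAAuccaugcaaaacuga
hsa-miR-92a-3p: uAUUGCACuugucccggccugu
miR-17-5p and miR-20a-5p share the seed AAAGUGC, and miR-19a-3p and miR-19b-3p share GUGCAAA. What the 4 RNAs meet here is the DNA of the cluster, and microRNA levels were not measured.

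Counted by element, most connections of these RNAs lay on chromosomes where their own genes are not. Over the 5 RNAs, 388 of 537 connections listed in R320* (72.3%) and 399 of 541 in WT (73.8%) were on a partner chromosome. The exact binomial 95% intervals are 68.3% to 76% in R320* and 69.8% to 77.4% in WT. They cover counting error only, and neighbouring elements are not independent counts. Many of these elements are neighbours: with the elements of 1 RNA merged within 1 Mb, the partner share of regions was 36.9% in R320* and 44.2% in WT. Of the other connections, 73 in R320* and 84 in WT were on the own chromosome, and 76 in R320* and 58 in WT were elsewhere. By the table's types, all 5 RNAs together had 8 local, 82 cis and 544 trans connections.

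The RNAs differed in this split, as the plot of connection numbers by element chromosome shows. ABL1 RNA had 165 partner connections in R320* and 156 in WT, against 9 and 10 on chromosome 9 itself. NUP214 RNA had 134 in R320* and 144 in WT, against 13 and 12 on its own chromosome. BCR RNA, the smallest list, had 38 in R320* and 27 in WT, with 5 on chromosome 22 in each genotype. DGCR2 RNA was the exception: 45 of its 58 connections in R320* and 55 of its 67 in WT were on its own chromosome 22, and 13 and 12 were on a partner. GPC5 RNA had 38 partner connections in R320* and 60 in WT, and on chromosome 13 only 1 and 2.

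**Figure D1:**
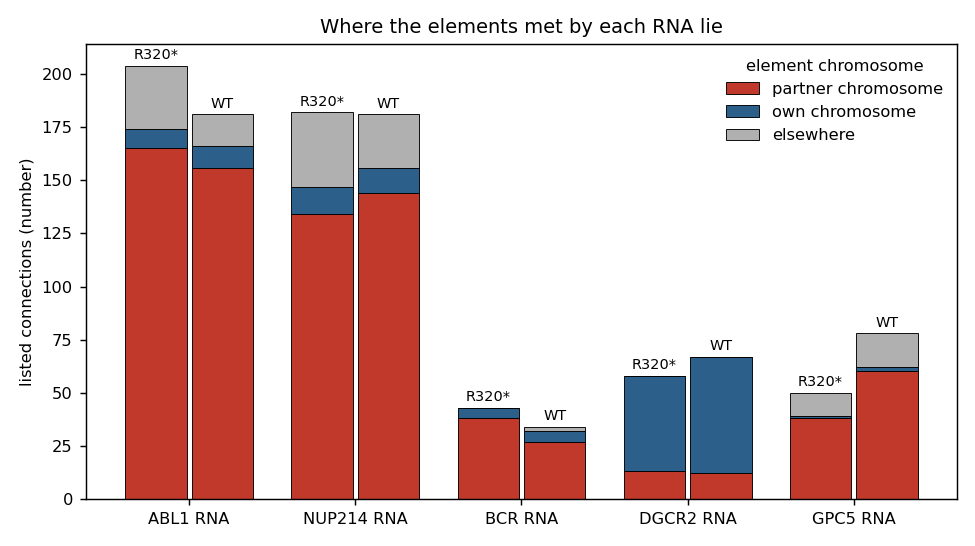
Number of listed connections (vertical axis) of each RNA in R320* (left bar of each pair) and WT (right bar), split by the chromosome of the element. Partner-chromosome connections (red) make up most of each bar except for DGCR2, and GPC5 has 50 connections in R320* and 78 in WT.

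Set against other RNAs, this pattern was rare. The table has 676 trans connections between chromosomes 9, 13 and 22, and 437 of them (64.6%) belonged to the 5 RNAs. The other 192 RNAs from these chromosomes had a pooled partner share of 3.98%, with a median of 0% and a maximum of 50%, and 34 of them had any. Among the 5 RNAs the pooled share was 68.9%, with a median of 75.3% and a range from 17.8% in DGCR2 to 85.1% in BCR. The 5 were picked for these contacts, so the comparison describes how far apart they lie and is no test.

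Partner-chromosome connections were mostly listed in both genotypes. Of 437 such connections, 350 (80.1%, exact 95% interval 76.0% to 83.7%) had a score in each genotype, 38 were listed in R320* alone and 49 in WT alone. On the own chromosome 67 of 90 (74.4%, 64.2% to 83.1%) were in both, and elsewhere 27 of 107 (25.2%, 17.3% to 34.5%). The backgrounds are 45.2% of all connections of the table, 53% of local and cis connections, 11.5% of trans connections, and 27.6% of the 239 trans connections of other RNAs between chromosomes 9, 13 and 22. By RNA, the partner connections in both genotypes numbered 152 of 169 for ABL1, 124 of 154 for NUP214, 25 of 40 for BCR, 12 of 13 for DGCR2 and 37 of 61 for GPC5.

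Scores were also higher on partner chromosomes than at home. The median listed score on a partner chromosome was 2.70 in R320* and 2.71 in WT, on the own chromosome 1.57 and 1.58, and elsewhere 1.89 and 2.10. This order of partner over own held in each of the 5 RNAs and both genotypes. For BCR RNA the partner median was 2.76 in R320* and 2.82 in WT, and its own-chromosome median 1.64 and 1.55. Connections listed in 1 genotype scored lower: on partner chromosomes, medians were 2.00 for those in R320* only and 2.05 for those in WT only. A score nearer the minimum of 1.2 can leave the list more easily, and its part in the shared counts was not tested. Promoter elements were met in 131 of the 437 partner connections (30.0%), against 34.0% of the table's 115357 connections. Counted once each, 29.7% of its 33948 elements were promoters.

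On chromosome 9 the 5 RNAs met the same short stretch. It runs from an enhancer inside ABL1 (chr9:130843738-130846794) to a promoter element near FAM78A that ends at 131279032, a span of 435 kb, and holds 19 of the table's elements, of which 13 were met by any of the RNAs and 9 by all of them. Those 9 run from the ABL1 enhancer to an enhancer inside NUP214 (chr9:131177836-131181551). The next element upstream within ABL1 (chr9:130824082-130826106), which 5 RNAs of the table meet, was met by none of the 5. The 4 further elements, from 131235260 onwards, were met by NUP214, BCR and GPC5 RNA in both genotypes, and ABL1 and DGCR2 RNA were not listed there.

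By median, the RNAs from chromosomes 22 and 13 scored higher on this stretch than ABL1 and NUP214 RNA, whose genes overlap it. BCR RNA had the highest score of the 5 at all 9 elements met by all of them in R320*, and at all 8 such elements in WT. Over its 13 elements its median was 3.79 in R320* and 3.64 in WT. DGCR2 RNA had medians of 2.89 in R320* and 3.22 in WT, and GPC5 RNA 2.76 in R320* and 3.04 in WT. ABL1 RNA had 1.80 in R320* and 1.73 in WT, and NUP214 RNA 1.65 and 1.70. Where all 5 were listed, the lowest score was that of ABL1 or NUP214 RNA, 4 and 5 times in R320* and 4 times each in WT. At single elements DGCR2 RNA in WT was lower than the RNA of the gene there: 1.42 against 1.66 for ABL1 RNA at the ABL1 enhancer, and 1.54 against 1.83 for NUP214 RNA at the NUP214 enhancer. At the 4 elements past the shared 9, GPC5 RNA had a median of 2.73 in R320* and 2.94 in WT, and BCR RNA 3.05 and 2.64. The elements met up to 64 RNAs each.

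The strongest single connection of BCR RNA was with the promoter element of FIBCD1 (chr9:130938777-130939345), the gene of an acetyl-binding receptor between ABL1 and NUP214, at 4.26 in R320* and 4.21 in WT. At the promoter element of AIF1L (chr9:131095977-131097088), an actin-bundling protein gene, BCR RNA had 4.15 in R320* and 3.97 in WT. DGCR2 RNA had its highest score there as well, 3.54 in R320* and 3.63 in WT, and GPC5 RNA had 3.28 and 3.29. At the ABL1 enhancer that opens the stretch, BCR RNA had 4.14 in R320* and 4.02 in WT, against 1.68 and 1.66 for ABL1 RNA itself. At the NUP214 promoter element, whose sequence is given above, BCR RNA had 4.04 in R320* and 3.82 in WT, against 1.76 and 1.72 for NUP214 RNA. At each of these 4 elements BCR RNA had the highest score of the 5 in both genotypes.

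**Figure D2:**
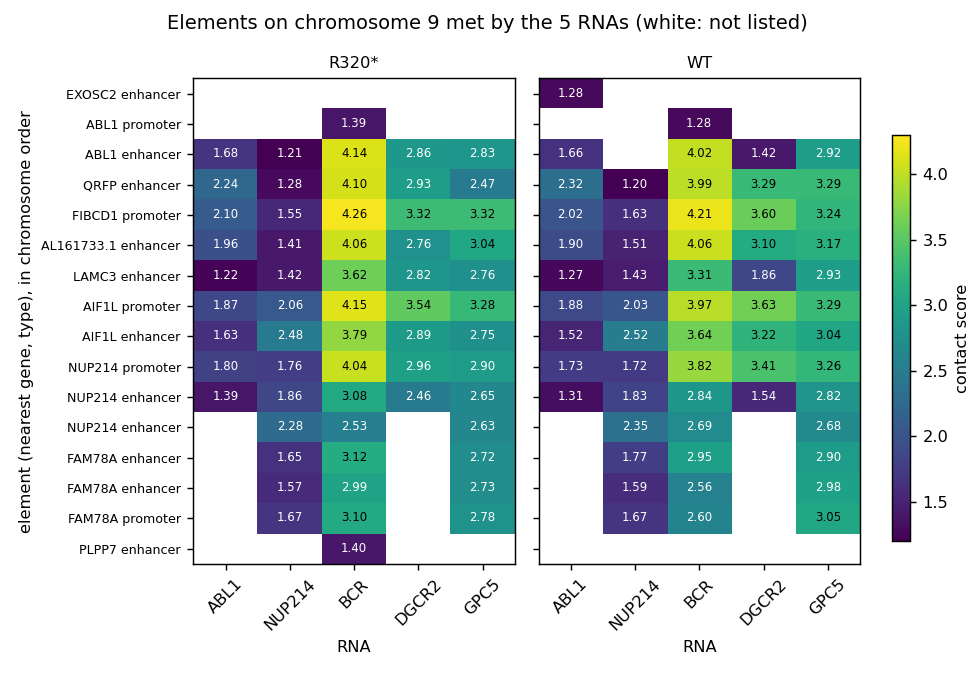
Contact scores at the 16 elements of chromosome 9 met by any of the 5 RNAs (rows in chromosome order, columns by RNA, colour and number giving the score), R320* left and WT right; white means not listed. BCR RNA has the highest score at each row met by all 5 RNAs, GPC5 RNA exceeds it at some of the rows below, and ABL1 and DGCR2 RNA are not listed at the last 5 rows.

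Outside this stretch the contacts of chromosome 9 were few and near the minimum. The ABL1 promoter element (chr9:130710782-130716260), which 3 RNAs of the table meet, was met by only BCR RNA of the 5, at 1.39 in R320* and 1.28 in WT. An enhancer near PLPP7 (chr9:131296988-131298707) was listed for BCR RNA in R320* only, at 1.40. An enhancer near EXOSC2 (chr9:130704921-130707642) was listed for ABL1 RNA in WT only, at 1.28.

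A comparison with XKR3 RNA was chosen after its values were seen, because XKR3 is the described fusion partner of NUP214. XKR3, of the XK-related membrane protein family, lies at chr22:16783480-16825411. Its RNA met the same 9 elements of chromosome 9 in both genotypes, with a median of 4.12 in R320* and 4.45 in WT. At the AIF1L promoter element it had 4.91 in R320* and 4.73 in WT, and at the NUP214 promoter element 4.76 and 4.72. XKR3 RNA exceeded BCR RNA at 5 of the 9 elements in R320* and at 7 in WT. At the NUP214 enhancer that ends the 9 it had 2.07 in R320* and 2.01 in WT, and it was not listed at the 4 elements beyond.

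The connection also ran the other way. The highest score of NUP214 RNA in R320* was with an enhancer next to XKR3 (chr22:16781359-16782061), at 4.10 in R320* and 4.14 in WT. ABL1 RNA had 3.21 in R320* and 3.48 in WT there. At a second XKR3 enhancer (chr22:16825208-16825476), NUP214 RNA had 3.11 in R320* and 3.06 in WT, and ABL1 RNA 2.07 and 2.06. Only 5 and 4 RNAs of the table met these enhancers, and neither BCR, DGCR2 nor GPC5 RNA was among them.

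On chromosome 22 most of the elements met lay in the interval from DGCR2 to BCR. Of 185 elements from 19107245 to 23227115, 137 were met by at least 1 of the 5 RNAs. ABL1 RNA met 128 of them, NUP214 RNA 117, DGCR2 RNA 59, GPC5 RNA 48 and BCR RNA 5. The last element met was an enhancer inside BCR (chr22:23210555-23227115), where ABL1 RNA had 4.35 in R320* and 4.28 in WT. The next 3 elements inside BCR, met by up to 13 RNAs of the table, were met by 0 of the 5. Of 18 elements within 1 Mb past BCR, 2 near SPECC1L were met, by ABL1 RNA in R320* only, at 1.83 and 1.65. Ahead of the interval, 15 of 35 elements were met, between 11817584 and 18970799. ABL1 RNA met 12 of these, NUP214 RNA 10 and DGCR2 RNA 1.

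The scores of ABL1 and GPC5 RNA on chromosome 22 were highest close to the start of BCR, those of DGCR2 RNA at its own gene, and NUP214 RNA was high both near BCR and near XKR3. Within 0.2 Mb of it, ABL1 RNA had a median score of 4.66 in R320* and 4.58 in WT. From 0.2 to 1 Mb away its median was 3.52 in R320* and 3.66 in WT, from 1 to 2 Mb 3.14 and 3.22, and from 2 to 3 Mb 2.48 and 2.61. From 3 to 4 Mb it was 2.50 in R320* and 2.49 in WT, and farther out 2.32 and 2.88. NUP214 RNA had lower medians than ABL1 RNA in each of these bins up to 4 Mb, 3.78 in R320* and 3.90 in WT within 0.2 Mb and 2.16 and 2.40 from 3 to 4 Mb. Farther out, where the XKR3 enhancers lie, its median was 2.62 in R320* and 2.70 in WT. Where both RNAs were listed on chromosome 22, NUP214 RNA was below ABL1 RNA at 90 of 100 elements in R320* and at 97 of 114 in WT.

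The highest scores of this set were at 3 elements just outside BCR. At the promoter element of RSPH14 (chr22:23069665-23070763), a gene for a protein of the ciliary radial spoke, ABL1 RNA had 4.91 in R320* and 4.87 in WT. NUP214 RNA had 4.06 in R320* and 4.19 in WT there, and GPC5 RNA 3.31 and 3.82. At an RSPH14 enhancer (chr22:23086576-23088793), ABL1 RNA had 4.85 in R320* and 4.82 in WT, and at an enhancer near RAB36 (chr22:23156935-23157290) 4.85 and 4.83. ABL1 RNA was slightly higher in R320* at all 3. At the BCR promoter element, whose sequence is shown above, ABL1 RNA had 4.46 in R320* and 4.34 in WT, against 1.48 and 1.40 for BCR RNA itself.

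BCR RNA was restricted to its own neighbourhood on chromosome 22. Its 5 own-chromosome elements all lay within 0.2 Mb of the start of BCR, with scores of 1.48 to 1.70 in R320* and 1.40 to 1.68 in WT, higher in R320* at each of the 5. DGCR2 RNA had its strongest own contacts at its promoter element (chr22:19120601-19123403), at 2.48 in R320* and 2.60 in WT, and at an enhancer inside DGCR2 (chr22:19107245-19116325), at 2.41 and 2.54. Its cis scores were otherwise low, with a median of 1.47 in R320* and 1.54 in WT over all cis elements. DGCR2 RNA was also listed along the way to BCR, 4 Mb away. From 3 to 4 Mb before the start of BCR it met 29 elements in R320* and 28 in WT. From 2 to 3 Mb it met 1 and 8, from 1 to 2 Mb 1 and 5, and from 0.2 to 1 Mb 4 and 5. Within 0.2 Mb of the start of BCR it met 5 elements, with medians of 1.57 in R320* and 1.92 in WT.

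**Figure D3:**
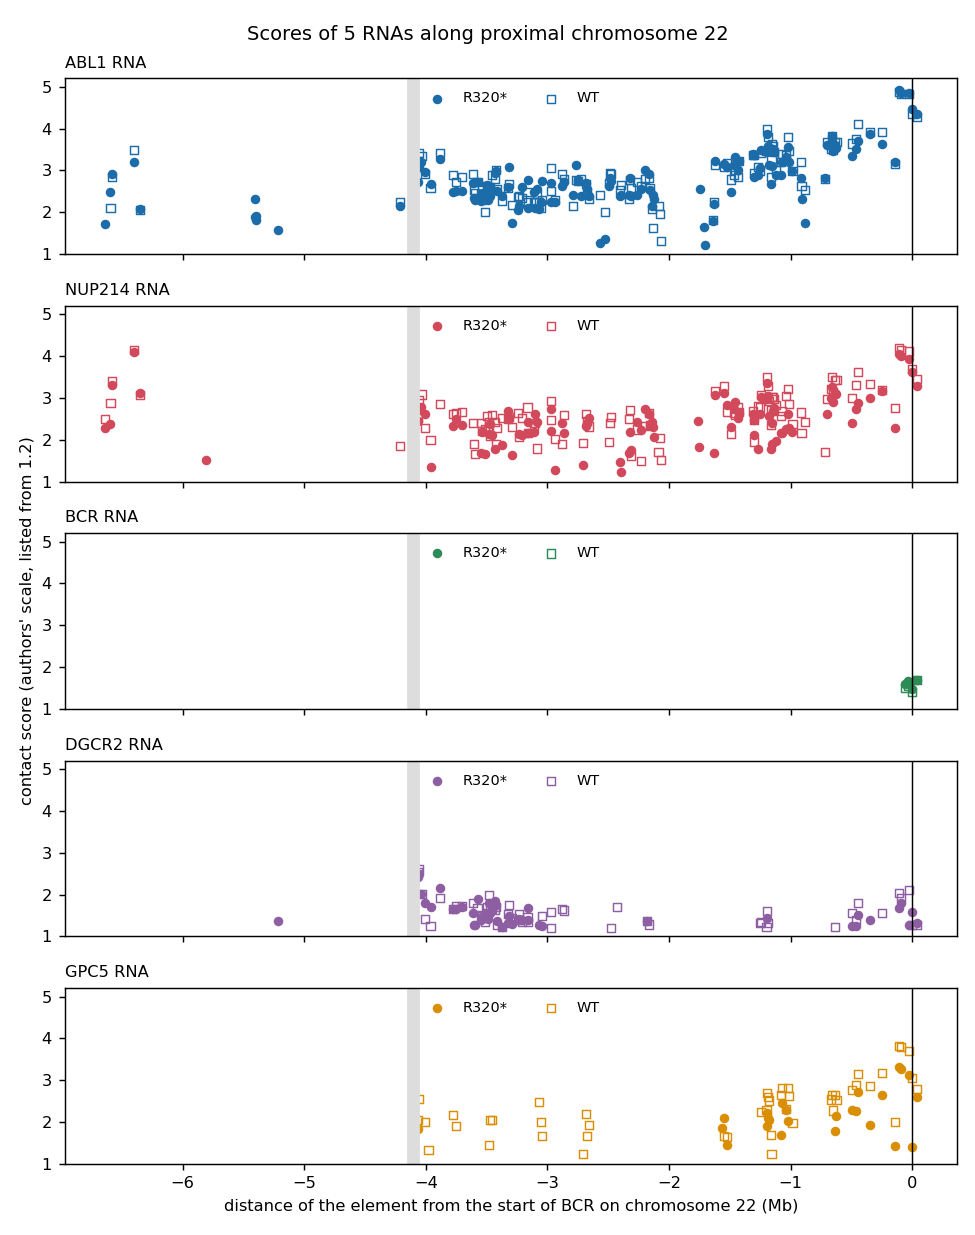
Contact scores of each RNA (vertical axis, listed from 1.2) against the distance of the element from the start of BCR on chromosome 22 (Mb, negative towards DGCR2), filled circles for R320* and open squares for WT. The grey band is DGCR2 and the vertical line the start of BCR. ABL1 and GPC5 RNA peak next to BCR, NUP214 RNA has high points next to BCR and beyond 6 Mb, and GPC5 RNA has no R320* points between 2 and 4 Mb.

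GPC5 RNA had fewer and lower-scoring contacts on chromosome 22 in R320* than in WT. It was listed at 25 elements in R320* and 47 in WT, with 24 shared, 1 found in R320* alone and 23 found in WT alone. The shared ones were 50% of its list there, against 80.1% of all partner connections of the 5 RNAs. The backgrounds are 45.2% of all connections of the table, 11.5% of trans connections, and 27.6% for other RNAs between chromosomes 9, 13 and 22. At the 24 shared elements the score was lower in R320* at 23, with a median difference of -0.486 (SD 0.382 over connections). Between 2 and 4 Mb from BCR it was listed at 0 elements in R320*, against 4 from 2 to 3 Mb and 9 from 3 to 4 Mb in WT. WT medians there were 1.79 and 1.99. On chromosome 9 GPC5 RNA was listed at 13 elements in both genotypes, 12 of them lower in R320*, with a median difference of -0.177.

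On chromosome 13 the contacts lay in 4 separate blocks holding 27 elements. The first is at 80591847 to 80599853, the second at 90415086 to 91407164, the third at 93226080 to 93290828 and the fourth at 107866383 to 108007474. Between them lay 8, 2 and 85 elements of the table that ABL1, NUP214, BCR and DGCR2 RNA did not meet. NUP214 RNA met all 27 in both genotypes, and ABL1 RNA 27 in R320* and 26 in WT. BCR RNA met 23 in R320* and 13 in WT, with 11 in both. DGCR2 RNA met 4 in R320* and 3 in WT, each of them annotated to MIR17HG.

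GPC5 RNA itself met 0 of these 27 elements. On its own chromosome it had an enhancer inside GPC5 (chr13:91534915-91535247), at 1.43 in both genotypes, and an enhancer near AL359436.1 (chr13:107875803-107876197), at 1.47 in WT only. Yet the GPC5 promoter element (chr13:91398277-91399001), shown above, was met by ABL1 RNA at 3.05 in R320* and 3.12 in WT and by NUP214 RNA at 3.26 and 3.31. BCR RNA was listed there at 2.80 in WT only. The 27 elements are not reserved for these RNAs: they held 242 connections of 51 RNAs, of which 54 were from chromosome 9, 73 from 22, 31 from 13 and 84 from other chromosomes.

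The MIR17HG promoter element, which carries the microRNA hairpins above, was met by 4 of the 5 RNAs in both genotypes. NUP214 RNA had 3.54 in R320* and 3.58 in WT there, and ABL1 RNA 3.12 and 3.45. BCR RNA had 3.00 in R320* and 2.95 in WT, and DGCR2 RNA 3.08 and 2.80. The highest score on the chromosome in R320* was that of NUP214 RNA at an enhancer inside GPC6 (chr13:93289940-93290828), another glypican gene, at 4.01 in R320* and 3.70 in WT. Here NUP214 RNA was above ABL1 RNA more often than below, at 20 of 27 elements in R320* and 19 of 26 in WT, the opposite of chromosome 22.

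The sign of the difference varied by block. In the second block ahead of the MIR17HG promoter element, BCR RNA was listed at 10 elements in R320* and 2 in WT. NUP214 RNA was higher in R320* at 10 of 13 elements there, with a median difference of 0.363, and ABL1 RNA at 8 of 12, with a median difference of 0.0456. In the 6 elements from the MIR17HG promoter to GPC5, ABL1 and NUP214 RNA were lower in R320* at 6 of 6, with median differences of -0.318 for ABL1 and -0.0946 for NUP214. BCR RNA was higher in R320* at 4 of 5 of these, and DGCR2 RNA at 3 of 3. In the fourth block BCR RNA was lower in R320* at 4 of 4. The blocks were drawn after the values were seen.

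**Figure D4:**
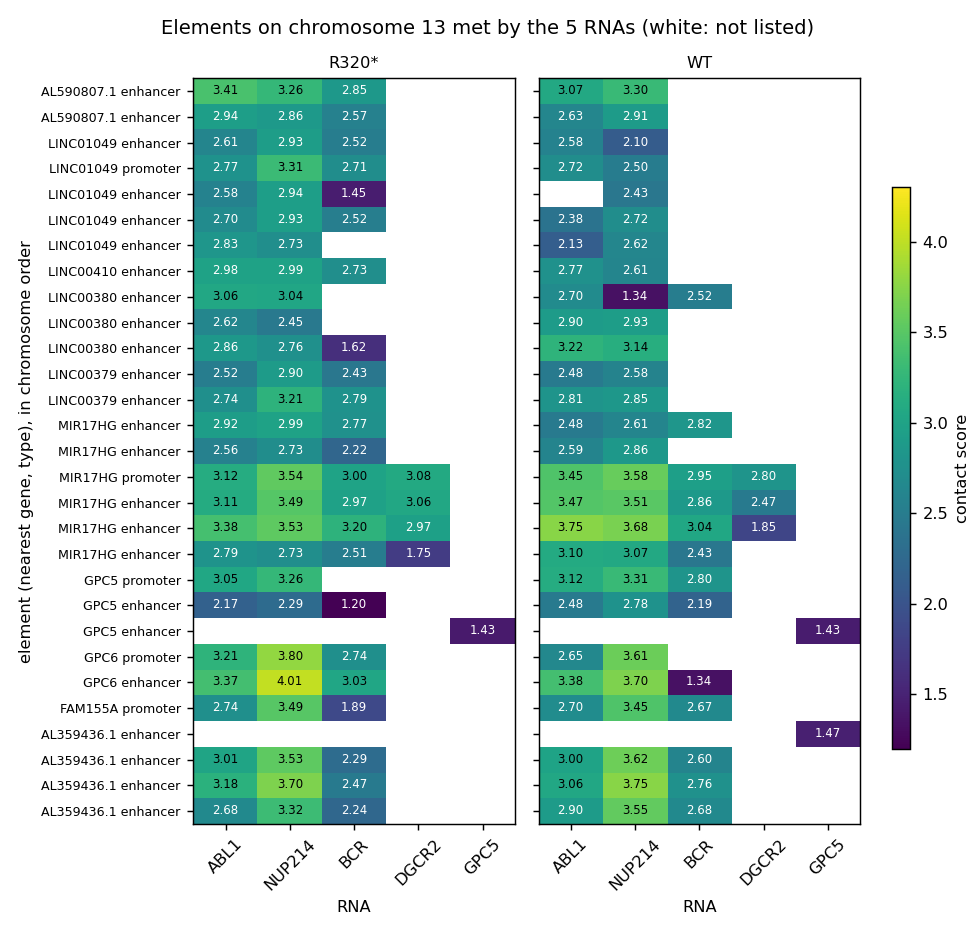
Contact scores at the 29 elements of chromosome 13 met by any of the 5 RNAs (rows in chromosome order, columns by RNA, colour and number giving the score), R320* left and WT right; white means not listed. ABL1 and NUP214 RNA fill the blocks in both panels, BCR RNA has 23 cells in R320* and 13 in WT, and GPC5 RNA appears only at 2 elements of its own.

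The difference in shared partner-chromosome scores varied by RNA. The median difference over all 5 RNAs was -0.0937 (SD 0.385 over 350 connections), with 124 higher and 226 lower in R320*, while over all 52089 shared connections of the table it was 0.0394 (SD 0.247). For ABL1 RNA it was -0.0492 (SD 0.255), with 62 higher and 90 lower. For NUP214 RNA it was -0.144 (SD 0.405), with 36 higher and 88 lower, and on chromosome 22 alone -0.206, with 23 higher and 74 lower. BCR RNA had 0.110 (SD 0.480), with 18 higher and 7 lower, and on chromosome 9 alone 0.160, with 13 of 14 higher. DGCR2 RNA had 0.0919 (SD 0.686), with 6 in each direction.

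GPC5 RNA had the lowest difference of the 5. Its median was -0.373 (SD 0.361) over 37 partner connections, 35 of them lower in R320*, and over all classes 45 of 47 were lower. It also had the lowest ratio of connection numbers, 50 in R320* against 78 in WT, a log2 ratio of -0.64. The ratios were 0.17 for ABL1 (204 in R320*, 181 in WT), 0.01 for NUP214 (182 and 181), 0.34 for BCR (43 and 34) and -0.21 for DGCR2 (58 and 67). Of these, 0 of 5 reached 2-fold, and 1.24% of 1293 RNAs with a mean of at least 25 connections did. The middle 95% of those RNAs ran from -0.62 to 0.71 around a median of 0.08, and GPC5 lay just below it.

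**Figure D5:**
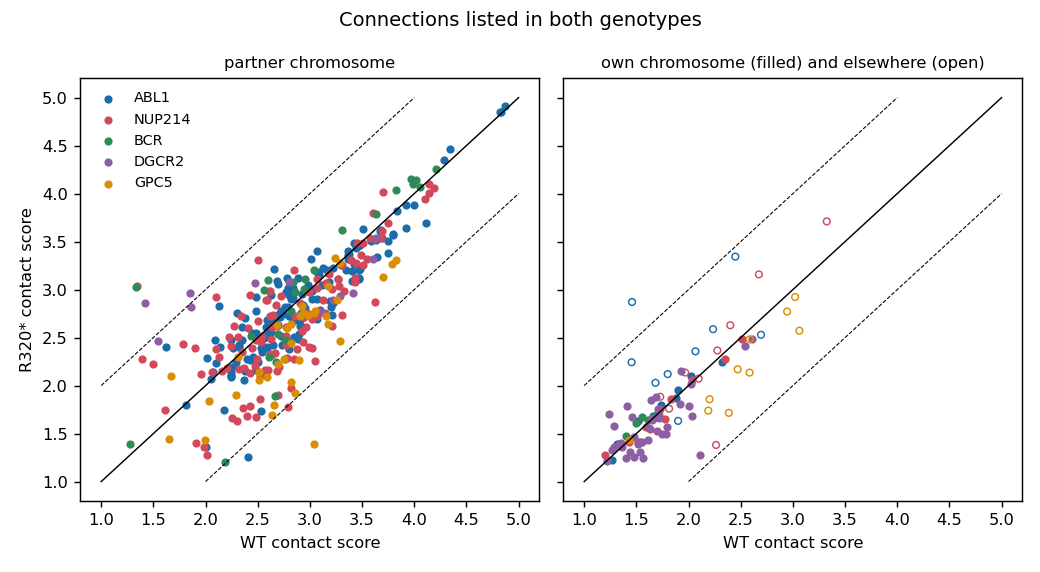
R320* score (vertical axis) against WT score (horizontal axis) of connections listed in both genotypes, coloured by RNA, for partner chromosomes (left) and for the own chromosome and elsewhere (right). The solid line marks equal scores and the dashed lines a difference of 1 unit; GPC5 points lie mostly below the solid line and 8 of the 444 connections lie beyond the dashed lines.

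Single connections that differed by at least 1 unit numbered 8 of 444, 5 higher and 3 lower in R320*, and 7 of the 8 were on a partner chromosome. Over all RNAs, 0.175% of shared connections differed that much (0.0998% higher and 0.0749% lower in R320*), and among trans connections 0.594%. The RNAs were chosen with these differences in view, so nothing is read from the comparison. Those higher in R320* included NUP214 RNA at an enhancer near LINC00380 on chromosome 13 (3.04 in R320*, 1.34 in WT) and BCR RNA at the GPC6 enhancer (3.03 and 1.34). DGCR2 RNA was higher at the ABL1 enhancer (2.86 in R320*, 1.42 in WT) and at a MIR17HG enhancer (2.97 and 1.85). ABL1 RNA was higher at an enhancer on chromosome 4 whose nearest gene is CWH43 (2.87 in R320*, 1.46 in WT).

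Those lower in R320* were all on chromosome 22. GPC5 RNA at the BCR promoter element had 1.40 in R320* and 3.04 in WT, while its scores at the neighbouring RAB36 enhancer were 3.13 and 3.70. ABL1 RNA at an enhancer near MED15, a Mediator subunit gene, had 1.26 in R320* and 2.41 in WT. NUP214 RNA at an enhancer near PPM1F, a phosphatase gene, had 1.78 in R320* and 2.79 in WT. Just inside the threshold of 1 unit lay that last connection, at -1.02, and just outside lay BCR RNA at the GPC5 enhancer at -0.981 and DGCR2 RNA at an enhancer near LAMC3 (2.82 and 1.86) at 0.962.

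Contacts elsewhere in the genome were scattered and mostly in 1 genotype. The 107 connections fell into 39 loci on 11 chromosomes, and the 27 shared ones into 8 loci. Those 27 were 25.2% of the 107, while 11.5% of all trans connections of the table were listed in both genotypes. ABL1 RNA had 30 in R320* and 15 in WT, with 9 in both, and NUP214 RNA 35 and 25, with 9 in both. GPC5 RNA had 11 in R320* and 16 in WT, with 9 in both, BCR RNA 2 in WT only, and DGCR2 RNA 0.

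Some of these loci repeated across genotypes or RNAs. ABL1 and NUP214 RNA both met enhancers beside the chromosome 4 centromere whose nearest gene is CWH43, a lipid remodelling factor gene. At chr4:49316762-49317140 ABL1 RNA had 3.34 in R320* and 2.45 in WT, and NUP214 RNA 3.71 and 3.32. NUP214 RNA met 4 elements at KMT2C, a histone methyltransferase gene on chromosome 7, and LINC01003 beside it in both genotypes, with its highest score at the promoter element (chr7:152432814-152438190), 2.37 in R320* and 2.28 in WT. GPC5 RNA met a run of elements at GOLGA8A, GOLGA8B and LINC02252 on chromosome 15, 7 in R320* and 8 in WT, and these were met by no more than 2 RNAs each. Its highest there was at chr15:34621095-34623185, with 2.92 in R320* and 3.02 in WT. Several of these loci lie in duplicated or pericentromeric sequence, and the sources used here do not give how reads with several matches were placed.

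Other loci lay around MALAT1 and EPC2. GPC5 RNA met 2 elements in R320* and 4 in WT at NEAT1 and MALAT1 on chromosome 11, where up to 279 RNAs were listed at a single element. At the MALAT1 promoter element it had 2.17 in R320* and 2.47 in WT. The promoter element of EPC2, a gene of the NuA4 acetyltransferase complex on chromosome 2 (chr2:148643332-148646301), was met by ABL1 RNA at 2.59 in R320* and 2.24 in WT. BCR RNA was listed there in WT only, at 2.56, and NUP214 RNA in R320* only, at 2.24.

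The element lists of the 5 RNAs overlapped in part. Together they met 294, of which 118 were met by 1 of them, 60 by 2, 80 by 3, 24 by 4 and 12 by all 5. Of the 12, 9 were on chromosome 9 and 3 on chromosome 22. ABL1 and NUP214 RNA shared 166 elements, 77.2% of the list of ABL1 and 76.1% of the list of NUP214. ABL1 RNA met 71 of the 73 elements of DGCR2 RNA (97.3%, and 33.0% of its own list), and NUP214 RNA 43 of the 47 of BCR RNA (91.5%, and 19.7% of its own). The lists of BCR and GPC5 RNA shared 16 elements (34.0% and 19.8%), those of BCR and DGCR2 RNA 16 (34.0% and 21.9%), and those of DGCR2 and GPC5 RNA 34 (46.6% and 42.0%). Of all 294 elements, 59.9% were met by at least 2 of the RNAs, and with elements of 1 RNA merged within 1 Mb, 25% of regions were. These lists share libraries and, in part, neighbouring genes.

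By the Jaccard index of element lists (shared over joint elements, both genotypes, RNAs of at least 10 elements), the RNA most like ABL1 was NUP214, at 0.622, followed by DGCR2 at 0.327. BCR RNA was most like MIR17HG RNA, at 0.455 with 25 shared elements. DGCR2 RNA was most like its chromosome 22 neighbours C22orf39 (0.522), HIRA (0.505) and CDC45 (0.5). GPC5 RNA was most like DGCR2 RNA, at 0.283, then NUP214 at 0.236. MIR17HG RNA was itself listed in R320* only, with 33 connections, 14 of them on a partner chromosome.

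Neighbouring genes carried such contacts unevenly. Of 36 other RNAs from genes within 2 Mb of a member gene, 16 had partner connections, 135 in all. On chromosome 22 they were 14 of 26 RNAs, with 118 connections, on chromosome 9 1 of 9, and on chromosome 13 MIR17HG alone. HIRA, a histone chaperone gene 208 kb from DGCR2, had 19 in R320* and 18 in WT. PI4KA, a lipid kinase gene on chromosome 22, had 1 in R320* and 9 in WT. On chromosome 9, LAMC3, 31.1 kb from NUP214, had 3 in R320* and 1 in WT. By contrast AIF1L, 2.44 kb from NUP214, FUBP3, 74.7 kb from ABL1, and PRRC2B, 139 kb from NUP214, had 0.

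Relatives of these genes had few or no connections of this kind. The 10 other nuclear pore RNAs of the table, with 16 to 74 connections each, had 0 on chromosomes 9, 13 and 22. Their genes lie on other chromosomes, and only NUP153 (4) and NUP98 (5) had any trans connections, so little could be listed there. By comparison, HBE1 and HBG2 RNA of chromosome 11, which are no relatives, had 22 of 160 and 23 of 168 trans connections there. Of the 10, 8 had more connections in R320* and 2 fewer. Over all RNAs, 84992 connections were listed in R320* and 82454 in WT, so nothing is read from this split. ABL2, the other ABL kinase, had 78 in R320* and 68 in WT, with 1 on these chromosomes. DGCR8, a microRNA processing gene of the DiGeorge region, had 19 in R320* and 14 in WT, with 0 on a partner chromosome. GPC5 was the only glypican RNA listed.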

How the data were processed

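GRID-seq was run by the authors on 4 libraries of K562 cells, 2 per genotype, grouped here by their genotype label. The tools named in the submitters' processing notes are cutadapt 1.12, BWA and bedtools, with the build hg38. The authors deposited a table with 1 score per connection and genotype. The sources used here do not give how the score was computed or how libraries were pooled. No score between 0 and 1.2 occurs, so 0 was read as not listed. Depth is unknown, and with 1 value per genotype there was no replicate spread and no test.

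The members and lists were chosen with earlier results of these data known. Computed here, with Python 3.11.15, pandas 2.3.3, numpy 2.4.6, scipy 1.17.1 and matplotlib 3.10.9, were connection numbers, medians, score differences, element overlaps and exact binomial intervals. Named connections were the 3 highest per RNA, class and genotype and all differing by at least 1 unit. Named RNAs were the 3 most alike by Jaccard index, genes within 2 Mb, and relatives of the members, of which not all are reported here. The stretches on chromosomes 9, 13 and 22, XKR3 and the other elements named were chosen after values were seen. Positions were matched to RefSeq GRCh38.p14: 19798 of 20902 elements annotated at a gene (94.7%) lay within 2000 bp of it. Starts are printed counting from 1. The counting was checked on simulated data. Alternatives tried were a higher minimum score, merged neighbouring elements, enhancers only, a narrower definition of partner, centred differences and numbers scaled by the genotype total.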

Additional observations from a re-analysis of the deposited data

How the results depend on the processing

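Of 87 alternative values, 70 stayed within the exact 95% interval of the value reported and 17 moved out of it. For ratios the interval treats R320* and WT connections as separate counts, though many are listed in both. For median differences it is a rank interval over connections, which are not replicates. Staying within it therefore says nothing about spread between libraries. With the elements of 1 RNA merged within 1 Mb, the log2 ratio of connection numbers (R320* over WT) was 0.62 for ABL1, 0.47 for NUP214 and 0.42 for DGCR2, the partner share was 36.9% in R320* and 44.2% in WT, 88% of partner regions were in both genotypes, other RNAs had a partner share of 8.68%, and 25% of regions were met by at least 2 of the RNAs. With scores of at least 1.5 the partner share was 76.8% in R320* and 78.7% in WT, against 5.23% in other RNAs. At 2 it was 89.9% in R320* and 88.8% in WT, against 9.65%, and 72.1% of elements were met by at least 2 RNAs. With partner elements limited to 5 Mb around a member gene, 34.9% of elsewhere connections were in both genotypes and other RNAs had 3.36%. Merging leaves far fewer regions, and a higher minimum removes low-scoring connections by construction. The median difference of DGCR2 on partner chromosomes, 0.0919 over 12 connections, had no settled sign: it was -0.0958 at 1.5, -0.306 at 2 and 0.758 over enhancers only. GPC5 stayed lower in R320* under all alternatives, with log2 ratios from -0.74 to -0.51. The interval of this ratio included 0 with merged elements (7 regions in R320*, 10 in WT, -2.15 to 1.03). It also did so with enhancers only (36 in R320*, 52 in WT, -1.19 to 0.11).

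No paired analysis was possible because the table holds 1 score per genotype, and for the same reason leaving out a replicate was not run. With no replicates, differences between R320* and WT cannot be told apart from differences between libraries or clones. The unknown depth, score scale and handling of reads with several matches limit every value.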

Other observations

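Other RNAs of chromosomes 9, 13 and 22 with many partner connections, chosen after their values were seen, differed in how many of them were listed in both genotypes. ZCCHC7 of chromosome 9 had 12 in R320* and 16 in WT, with 3 in both. DLEU1, a long noncoding RNA of chromosome 13, had 13 in R320* and 5 in WT, with 1 in both. HIRA had 15 of 22 in both, C22orf39 11 of 20 and XKR3 9 of 9.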
